A study of Homo sapiens with 9 samples.

Results

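Protocadherins are cadherin-like adhesion proteins of the cell surface, and 70 of the 25593 loci in each deposited table carry a symbol that begins with PCDH and holds no hyphen. Of these, 57 lie in the PCDHA, PCDHB and PCDHG clusters on chromosome 5 (15 PCDHA, 19 PCDHB and 23 PCDHG loci, pseudogenes included). The other 13 are non-clustered genes (PCDH1, PCDH7, PCDH8, PCDH9, PCDH10, PCDH11X, PCDH11Y, PCDH12, PCDH15, PCDH17, PCDH18, PCDH19 and PCDH20). Their mRNA levels were compared among 9 cultures of neural crest-like progeny of the human embryonic stem cell line H9, with 3 cultures in each of 3 expansion media.

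In the F_FSB cultures, cells had been expanded with FGF2 and SB431542 for 4 passages and were then held in FGF2 without the inhibitor for 3 more. The FSB cultures stayed in 5 to 10 ng/ml FGF2 with 3 to 5 µM SB431542, and the F cultures received FGF2 alone during expansion. SB431542 blocks the type I receptors for TGF-β, Activin and Nodal. Cells of all 3 groups had been differentiated for 6 days with 10 µM SB431542, so the F cultures too had met the inhibitor before expansion. The sort took cells with high CD271 and no CD73 per the growth protocol, whereas the cell type label gives both as positive. All cultures came from a single line, grew on fibronectin under 5% oxygen and were harvested at passage 6 to 7. The design text calls the cultures biological replicates, and nothing in the labels ties equal culture numbers to a shared origin.

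In the PCDHA and PCDHG clusters, each gene has its own promoter and its own variable first exon, which is spliced to constant exons that all genes of the cluster share. PCDHB genes are single exons with no constant part. The proteins bind like partners on neighbouring cells, and in neurons each cell uses a few of the promoters, a choice that depends on the DNA-binding factor CTCF and on cohesin. Non-clustered protocadherins are single genes with their own regulation, and several of them link to the actin-regulating WAVE complex. Protocadherins are best known from neurons, while some non-clustered members also act in endothelium, airway epithelium and the inner ear.

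Promoter sequences are shown because each clustered gene has a promoter of its own, and the promoters of a cluster have short stretches of letters in common. RefSeq start-site windows (GRCh38.p14, from 250 bases before to 50 after a gene's start) were at hand for 58 of the 70 loci. The letters GATGTCGCT, searched on both strands, stand in 9 of 13 PCDHA windows and in 0.105% of all 35116 windows. The letters GGTGGCGCT stand in 13 of 14 PCDHB windows, all but that of PCDHB1, and in 0.501% of all windows. The letters GNCGCTGT, where N is any base, stand in 17 of 20 PCDHG windows and in 4.35% of all windows, and they also occur in 5 PCDHA windows and 1 PCDHB window. All 3 motifs overlap in the core CGCT, which by itself is in 70.0% of all windows. None of the 11 windows of non-clustered genes holds any of the 3 longer motifs. The motifs were written down after the members' windows had been compared, and a match of letters is not a measured binding site. The 18 stretches below, 40 bases each on the plus strand of GRCh38.p14, belong to genes that passed a test or are among the most abundant of their cluster, and capitals mark the CGCT core.
PCDHA2, chr5:140794779-140794818: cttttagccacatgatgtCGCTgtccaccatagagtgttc
PCDHA4, chr5:140806977-140807016: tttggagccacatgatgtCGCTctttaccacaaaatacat
PCDHA10, chr5:140855839-140855878: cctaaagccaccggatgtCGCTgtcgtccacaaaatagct
PCDHB2, chr5:141094542-141094581: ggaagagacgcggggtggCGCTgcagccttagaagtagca
PCDHB3, chr5:141100391-141100430: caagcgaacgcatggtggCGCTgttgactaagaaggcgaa
PCDHB4, chr5:141121721-141121760: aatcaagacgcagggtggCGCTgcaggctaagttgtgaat
PCDHB5, chr5:141135177-141135216: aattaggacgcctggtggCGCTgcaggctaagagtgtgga
PCDHB7, chr5:141172564-141172603: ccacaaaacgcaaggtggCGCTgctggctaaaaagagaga
PCDHB9, chr5:141187072-141187111: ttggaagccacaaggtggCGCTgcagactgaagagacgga
PCDHB10, chr5:141192297-141192336: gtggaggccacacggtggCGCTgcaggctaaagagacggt
PCDHB14, chr5:141223261-141223300: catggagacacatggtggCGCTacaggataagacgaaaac
PCDHB15, chr5:141245312-141245351: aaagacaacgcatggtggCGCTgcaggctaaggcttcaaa
PCDHB16, chr5:141182308-141182347: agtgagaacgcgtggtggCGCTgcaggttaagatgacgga
PCDHGB2, chr5:141359919-141359958: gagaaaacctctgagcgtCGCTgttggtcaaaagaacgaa
PCDHGB4, chr5:141387615-141387654: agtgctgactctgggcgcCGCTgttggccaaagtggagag
PCDHGB6, chr5:141407922-141407961: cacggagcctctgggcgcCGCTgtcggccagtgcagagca
PCDHGC3, chr5:141475878-141475917: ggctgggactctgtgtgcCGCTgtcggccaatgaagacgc
PCDHGC4, chr5:141484950-141484989: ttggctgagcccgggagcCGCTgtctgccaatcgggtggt
In this set the first base of the core lies between positions −81 and −11 from the gene's start, except in PCDHGB2, where it lies at −199. Genes that passed the tests below and genes that did not both carry the motif of their cluster, for example PCDHB2 and PCDHB5. The window of PCDHGB7, an abundant γ gene, does not hold the γ letters, and that of PCDHAC2, an abundant α gene, does not hold the α letters.

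The shared exons set how far the clustered values can be separated. In the deposited tables (GRCh37 coordinates), each PCDHA locus overlaps all 14 others and each PCDHG locus overlaps 18 to 22 others, while no PCDHB locus overlaps another member. The GENCODE annotation of GRCh37 gives 3 constant exons for PCDHA, at 140358534 to 140358592, 140362060 to 140362148 and 140389212 to 140391929 on chromosome 5. For PCDHG it gives 140874374 to 140874432, 140884960 to 140885048 and 140890514 to 140892542. Exonic bases shared with another member had a median of 46.6% over PCDHA loci, 43.8% over PCDHG loci and 0.0% over PCDHB loci. A fragment from a constant exon can come from any gene of its cluster, so PCDHA and PCDHG values rest on how Cufflinks divided such fragments and are uncertain to that extent. PCDHB genes resemble each other in sequence instead. A median of 5.45% of the 100-base stretches of a PCDHB gene, and up to 25.6% in PCDHB8, occur unchanged in another member. The sources used here do not say whether strand was used in quantification, and GENCODE places antisense genes over exons of 9 PCDHA, 10 PCDHB, 2 PCDHG and 4 non-clustered loci. Genes on the same strand, which strand cannot separate, lie over exons of PCDHB8, PCDHB9, PCDHB14, PCDHB15, PCDHB16, PCDHB17, PCDHB19P, PCDHA10 and PCDH20. The same such gene lies over PCDHB9 and PCDHB16, and another over PCDHB14 and PCDHB15. PCDH11X and PCDH11Y are near-identical copies and are given no value.

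Levels are FPKM as deposited, that is, fragments scaled to transcript length and to the mapped fragments of the library. A gene was tested where it reached 1 FPKM in at least 3 of the 9 libraries, and was called where its change on the log2(FPKM + 1) scale had an adjusted p under 0.05 by limma with Benjamini-Hochberg adjustment over all 13216 genes tested. Of the clustered loci, 35 were tested (8 PCDHA, 16 PCDHB and 11 PCDHG), and of the non-clustered loci 8. In FSB against F, 41.9% of all genes tested were called (28.5% higher and 13.4% lower). In F_FSB against FSB, 41.8% were called (13.7% higher and 28.2% lower), and in F_FSB against F, 0.00757%, which is 1 gene. The median change of all genes was 0.14 for FSB against F and −0.13 for F_FSB against FSB, and rescaling by median ratios brought it to 0.002 and 0.005. That rescaling also changed the split of called genes in FSB against F to 2424 higher and 2461 lower, against 3763 and 1773 without it. The comparisons FSB against F and F_FSB against FSB share the FSB libraries, so a value that is high or low in FSB enters both. F_FSB replicate 2 stood apart from the other 8 libraries, with an estimated depth of 60.2% of the deepest library, against 82.4% to 100%, and a summed FPKM of 506146, against 361026 to 395596. Of 10 neural crest markers, 7 were tested. In FSB against F, 4 of these were called higher, and in F_FSB against FSB 5 were called lower, with none called the other way. The summed FPKM of the 10 was 141 to 166 in F_FSB, 429 to 465 in FSB and 169 to 199 in F cultures. Among them, FOXD3 stayed under 0.1 FPKM in all 9 libraries, and SOX10 reached 1.69 FPKM in FSB replicate 3 and at most 0.0993 FPKM elsewhere. Of 10 neuron markers, ELAVL4 was at 0 and 3 in all were under 0.1 FPKM in every library. Of 7 mesenchymal markers, PDGFRA, NT5E and ENG were called lower in FSB against F, and NT5E and ENG were called higher in F_FSB against FSB, the direction of the PCDHB genes, PCDH7 and PCDH9. ENG was at 182 to 276 FPKM in F_FSB, 31.0 to 89.3 FPKM in FSB and 170.0 to 189 FPKM in F cultures, while the sum of the 7, mostly VIM, was 2145 to 3424, 2206 to 2597 and 2146 to 3186 FPKM in the same groups. The summed FPKM of the neuron markers, mostly TUBB3, was 111 to 155 in F_FSB, 108 to 155 in FSB and 65.2 to 107 in F cultures. Of the 6 tested, none was called in FSB against F, and 1 was called higher and 1 lower in F_FSB against FSB. SYT1 was at 2.56 to 4.01 FPKM in F_FSB, 0.596 to 0.85 FPKM in FSB and 0.786 to 2.74 FPKM in F cultures. It reached 1 FPKM in no FSB library. NEFM was at 0.505 to 2.02, 12.2 to 15.8 and 0.301 to 14.8 FPKM in the same groups. The part of any cell mixture in the results below was not tested. In such bulk samples, fewer cells that express a gene and less of its RNA per cell cannot be told apart.

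Within each cluster a few genes supplied most of the signal, and they were mostly the same genes in all 9 cultures. In PCDHA, the genes PCDHA10, PCDHA4, PCDHAC2 and PCDHA2 held 64.1% to 75.2% of the summed FPKM of the 15 loci, and PCDHA10 was the highest in all 9 libraries. In PCDHB, the genes PCDHB2, PCDHB5, PCDHB15 and PCDHB16 held 63.3% to 69.2%, and PCDHB2 was the highest in 8 libraries and PCDHB5 in the other. In PCDHG, the genes PCDHGC3, PCDHGB7, PCDHGB4 and PCDHGB6 held 86.8% to 89.5%, with PCDHGC3 the highest in 5 libraries and PCDHGB4 in the others. Rank correlations between libraries over the genes of a cluster describe the same order. Between libraries of different groups, Spearman's rho was 0.854 to 0.986 over the 15 PCDHA loci, 0.935 to 0.991 over the 19 PCDHB loci and 0.864 to 0.98 over the 23 PCDHG loci. Between libraries of the same group it was 0.896 to 0.979, 0.974 to 1.0 and 0.934 to 0.984 for the same clusters. These points share their loci, gene lengths and, for PCDHA and PCDHG, constant exons.

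**Figure D1:**
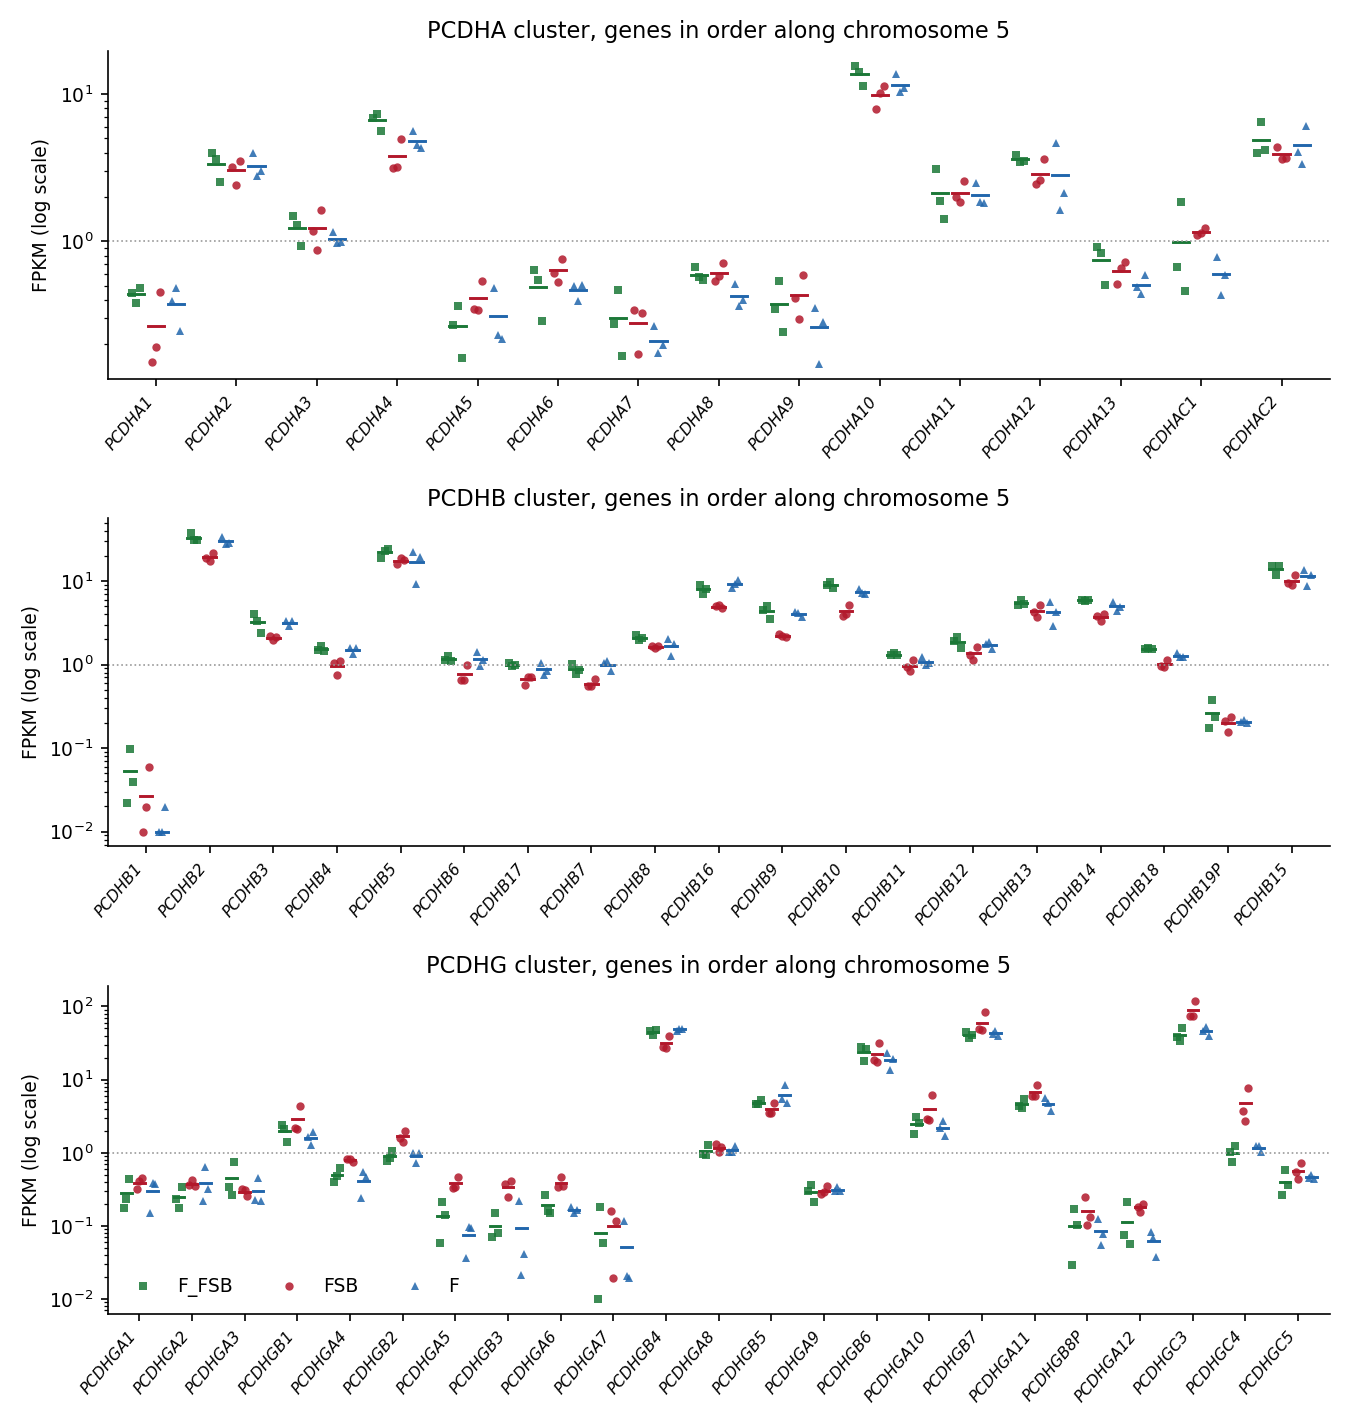
FPKM on a log scale (y axis) of every PCDHA, PCDHB and PCDHG locus, in order along chromosome 5 (x axis), with F_FSB, FSB and F libraries as points from left to right, 3 each, horizontal bars at group means, the dotted line at 1 FPKM and values under 0.01 FPKM drawn at 0.01. The same few genes stand out in all 3 media, with PCDHA10, PCDHB2 and PCDHGC3 the highest on average in their clusters.

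Summed over a cluster, PCDHB was lowest in FSB and PCDHG was highest there. The PCDHB sum was 121, 114 and 115 FPKM in F_FSB, 73.9, 73.0 and 83.9 FPKM in FSB and 117, 86.0 and 103 FPKM in F cultures. Each FSB library lay below every library of the other groups. The PCDHG sum was 175, 149 and 186 FPKM in F_FSB, 196, 190 and 313 FPKM in FSB and 179, 185 and 165 FPKM in F cultures. The FSB libraries were all above the others, FSB replicate 3 by far. The PCDHA sum averaged 39.7 ± 6.33 FPKM in F_FSB, 31.2 ± 4.70 FPKM in FSB and 33.2 ± 5.66 FPKM in F cultures (SD, n = 3 each), and the groups overlapped.

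PCDHB was the cluster with the most called genes, all in one direction per comparison. In FSB against F, 8 of the 16 tested PCDHB genes fell and none rose, beside 13.4% of all genes that fell. One of the 8, PCDHB7, and the uncalled PCDHB6 reached 1 FPKM in no FSB library, so they passed the filter through the other groups alone. Among the other 14 genes, 7 fell in FSB against F and 8 rose in F_FSB against FSB, with median changes of −0.275 and 0.41. The median change of the 16 was −0.31, and 14 had a negative change. On withdrawal, in F_FSB against FSB, 8 of 16 rose and none fell, beside 13.7% of all genes that rose, with a median change of 0.36 and positive changes in all 16. The genes PCDHB2, PCDHB3, PCDHB4, PCDHB9, PCDHB10, PCDHB14 and PCDHB16 were called in both comparisons. PCDHB7 was called in FSB against F alone, and PCDHB18 in F_FSB against FSB alone, and the difference between these calls was not tested. PCDHB18, counted among the 16 tested genes and the 8 that rose, is the pseudogene PCDHB18P in GENCODE. It had 1.53, 1.57 and 1.55 FPKM in F_FSB, 0.948, 0.947 and 1.14 FPKM in FSB and 1.38, 1.23 and 1.22 FPKM in F cultures, near the limit for testing. The FSB libraries lay below all F libraries in 9 of 16 genes (19.2% of all genes tested), and all F_FSB libraries lay above the FSB libraries in 15 of 16 (19.2% of all genes tested). PCDHB7 is among the 9, and PCDHB6 and PCDHB7 are among the 15, where the filter favours such a gap for these 2 genes.

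PCDHB2, the most abundant β gene, had 37.4, 30.9 and 30.9 FPKM in F_FSB, 19.1, 17.4 and 21.8 FPKM in FSB and 34.1, 27.7 and 28.7 FPKM in F cultures. The FSB libraries stood clear below both other groups, which overlapped each other. On the log2(FPKM + 1) scale the change was −0.61 ± 0.12 (SE) in FSB against F (limma, adjusted p = 0.00579) and 0.74 ± 0.12 in F_FSB against FSB (adjusted p = 0.00244). The intervals that Cufflinks gave for PCDHB2 did not overlap between FSB and F either: the highest upper bound in FSB was 22.6 FPKM and the lowest lower bound in F was 24.5 FPKM. The same held for PCDHB9, PCDHB10 and PCDHB16. In PCDHB3, PCDHB4, PCDHB7 and PCDHB14, the other PCDHB genes called in FSB against F, the intervals overlapped. For PCDHB14 these bounds were 4.66 FPKM in FSB and 3.65 FPKM in F.

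PCDHB10 had 9.01, 9.72 and 8.26 FPKM in F_FSB, 3.83, 4.05 and 5.10 FPKM in FSB and 8.07, 7.25 and 6.91 FPKM in F cultures. It had the largest change of any PCDHB gene on withdrawal of the inhibitor, 0.91 ± 0.11 (SE) in F_FSB against FSB (limma, adjusted p = 0.000778), and −0.66 ± 0.11 in FSB against F (adjusted p = 0.00283). PCDHB16 had 9.01, 6.99 and 7.92 FPKM in F_FSB, 5.00, 5.12 and 4.69 FPKM in FSB and 8.29, 9.16 and 10.2 FPKM in F cultures. Its change of −0.78 ± 0.11 in FSB against F was the largest decrease among the β genes (limma, adjusted p = 0.00123), and its ratio of means was 0.535. PCDHB9 averaged 4.34 ± 0.758 FPKM in F_FSB, 2.20 ± 0.0824 FPKM in FSB and 4.04 ± 0.313 FPKM in F cultures (SD, n = 3 each), with changes of −0.65 and 0.73 in the 2 comparisons.

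The smaller called changes were those of PCDHB3, PCDHB4, PCDHB7, PCDHB14 and PCDHB18, at −0.44 to −0.33 in FSB against F or 0.34 to 0.55 in F_FSB against FSB. Most of these calls were lost without some single libraries. That of PCDHB7 in FSB against F (limma, adjusted p = 0.0492) was lost whichever of the 9 libraries was left out. PCDHB3 lost its call in FSB against F without any 1 FSB or F library, and in F_FSB against FSB without any 1 library other than F_FSB replicate 3 or F replicate 2. PCDHB4 lost its call in FSB against F without FSB replicate 1 or 2 or F replicate 1 or 3. In F_FSB against FSB, PCDHB4 and PCDHB18 lost theirs without any 1 F_FSB library or FSB replicate 1 or 2. PCDHB14 averaged 5.89 ± 0.0927 FPKM in F_FSB, 3.71 ± 0.359 FPKM in FSB and 4.99 ± 0.622 FPKM in F cultures (SD, n = 3 each). Its call in FSB against F was lost without FSB replicate 1, FSB replicate 2, F replicate 1 or F replicate 3 (limma, adjusted p = 0.0594, 0.0945, 0.0792 and 0.0599). The β genes next in abundance after PCDHB2 behaved less uniformly. PCDHB5 had 19.1, 22.6 and 24.5 FPKM in F_FSB, 16.1, 18.9 and 17.8 FPKM in FSB and 22.5, 9.14 and 19.2 FPKM in F cultures, with F replicate 2 far below the rest. PCDHB15 had 15.1, 11.9 and 15.2 FPKM in F_FSB, 9.45, 9.07 and 11.7 FPKM in FSB and 13.7, 8.596 and 11.96 FPKM in F cultures. Neither was called in either comparison, although PCDHB15 in F_FSB against FSB passed without F replicate 2 (limma, adjusted p = 0.0335), with the replicate number as a block (adjusted p = 0.0316) and after rescaling by median ratios (adjusted p = 0.029). Their 95% intervals for FSB against F were −0.51 to 0.78 and −0.56 to 0.25.

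The number of PCDHB calls depended on single libraries, though no PCDHB gene was called in the opposite direction under any alternative. For FSB against F, 4 of 16 were called without FSB replicate 1, FSB replicate 2, F replicate 1 or F replicate 3. For F_FSB against FSB, 5 of 16 were called without F_FSB replicate 1, F_FSB replicate 2, FSB replicate 1 or FSB replicate 2. Rescaling by median ratios gave 9 lower and 12 higher, and rescaling to equal FPKM sums gave 4 lower and 4 higher.

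**Figure D2:**
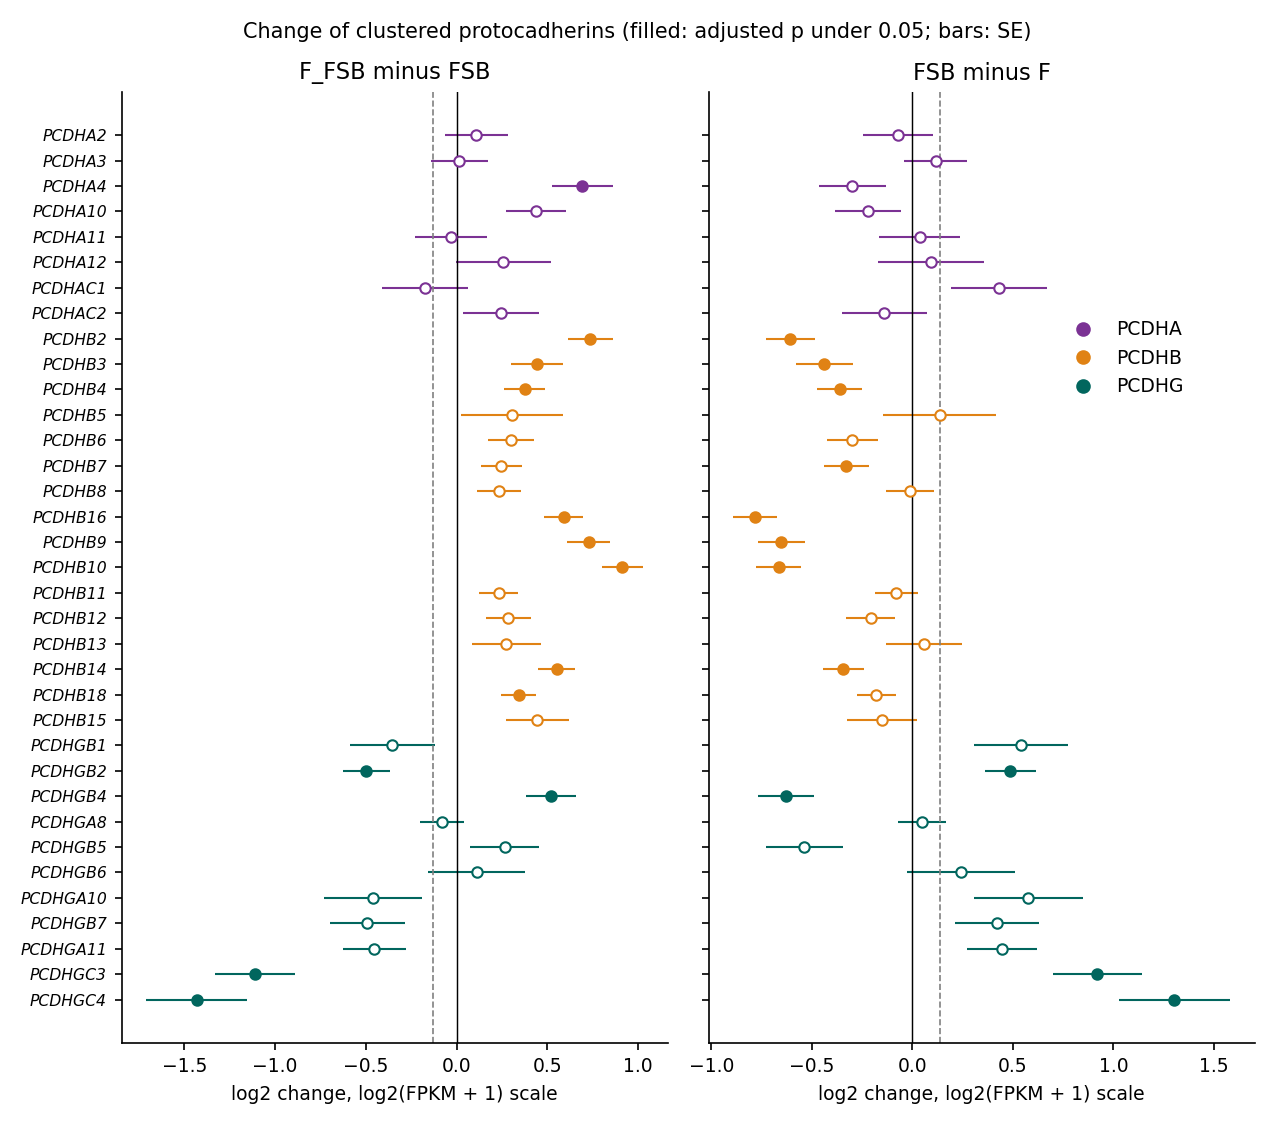
Change on the log2(FPKM + 1) scale (x axis) of each of the 35 tested clustered genes, listed in chromosome order, for F_FSB minus FSB and for FSB minus F, with bars of 1 SE, filled points for an adjusted p under 0.05 and a dashed line at the median of all genes. PCDHB genes lie above 0 after withdrawal and mostly below 0 with the inhibitor, while PCDHGC3 and PCDHGC4 lie on the opposite sides.

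PCDHG genes moved in both directions. In FSB against F, PCDHGB2, PCDHGC3 and PCDHGC4 rose and PCDHGB4 fell, 4 of 11 tested beside 41.9% of all genes, a share near that background. On withdrawal, in F_FSB against FSB, the same 4 genes were called, each in the other direction, beside 41.8% of all genes. PCDHGB2 reached 1 FPKM in all 3 FSB libraries and in 1 other, so it passed the filter only through FSB, where it is high. Among the other 10 genes, 2 rose and 1 fell in FSB against F. The median change of the 11 genes was 0.45 in FSB against F and −0.45 in F_FSB against FSB, and without FSB replicate 3 it was 0.28 and −0.16. All FSB libraries were above all F libraries in 7 of the 11 genes (38.7% of all genes tested) and below them in 1. All F_FSB libraries were below the FSB libraries in 5 (36.6% of all genes tested) and above them in 1. PCDHGB2 is among the 7 and among the 5, where the filter favours such a gap for this gene.

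PCDHGC3, a C-type gene whose protein has been described to bind the Wnt pathway scaffold Axin1, had 37.8, 33.3 and 50.7 FPKM in F_FSB, 74.8, 74.9 and 120 FPKM in FSB and 46.3, 52.2 and 39.7 FPKM in F cultures. All FSB libraries were above all others, FSB replicate 3 the most. The ratio of means was 1.95 in FSB against F, with a log2 change of 0.92 ± 0.22 (SE; limma, adjusted p = 0.0122). It was 0.452 in F_FSB against FSB, with a change of −1.11 ± 0.22 (adjusted p = 0.00525). Without FSB replicate 3, the changes were 0.70 (adjusted p = 0.0267) and −0.89 (adjusted p = 0.0109).

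PCDHGC4, a C-type gene that in mouse is needed for the survival of some neurons, had 1.01, 0.739 and 1.25 FPKM in F_FSB, 3.76, 2.75 and 7.65 FPKM in FSB and 1.24, 1.25 and 1.04 FPKM in F cultures. The FSB libraries were again all higher and differed widely among themselves. The ratio of means was 4.01 in FSB against F, with a log2 change of 1.30 ± 0.28 (limma, adjusted p = 0.00727), and 0.212 in F_FSB against FSB, with a change of −1.43 ± 0.28 (adjusted p = 0.00463). Without FSB replicate 3, the changes were 0.96 (adjusted p = 0.00512) and −1.09 (adjusted p = 0.00325). The last C-type gene, PCDHGC5, was not tested and averaged 0.402 ± 0.163 FPKM in F_FSB, 0.567 ± 0.142 FPKM in FSB and 0.466 ± 0.0322 FPKM in F cultures (SD, n = 3 each).

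PCDHGB4 had 45.9, 41.0 and 47.9 FPKM in F_FSB, 28.3, 26.7 and 39.2 FPKM in FSB and 46.8, 49.2 and 49.2 FPKM in F cultures. It was lower in every FSB library than in any other, the reverse of PCDHGC3 and PCDHGC4. The log2 change was −0.63 ± 0.14 (SE) in FSB against F (limma, adjusted p = 0.00873) and 0.52 ± 0.14 in F_FSB against FSB (adjusted p = 0.0181). The call in F_FSB against FSB was lost without F_FSB replicate 3, FSB replicate 1 or FSB replicate 2, where the change was 0.42 to 0.47, with adjusted p values of 0.0561, 0.0662 and 0.0649. It was also lost with equal FPKM sums, at 0.42 (adjusted p = 0.136).

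PCDHGB2 had 0.779, 0.846 and 1.04 FPKM in F_FSB, 1.62, 1.42 and 1.99 FPKM in FSB and 0.997, 0.718 and 0.997 FPKM in F cultures, all low values near the limit for testing. Its change was 0.49 ± 0.13 (SE) in FSB against F (limma, adjusted p = 0.0174), which without F replicate 2 was 0.41 (adjusted p = 0.0588). For F_FSB against FSB it was −0.50 ± 0.13 (adjusted p = 0.0156).

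PCDHGB7 and PCDHGB6 are the other abundant γ genes. PCDHGB7 had 45.1, 37.0 and 40.4 FPKM in F_FSB, 48.5, 47.1 and 83.6 FPKM in FSB and 42.4, 46.8 and 39.4 FPKM in F cultures. Its FSB libraries were higher than all others, 2 of them by little, and it was not called (adjusted p = 0.138 in FSB against F and 0.0915 in F_FSB against FSB by limma). PCDHGB6 had 27.6, 18.1 and 25.9 FPKM in F_FSB, 18.6, 17.5 and 31.2 FPKM in FSB and 23.0, 13.7 and 19.05 FPKM in F cultures, with full overlap of the groups.

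The make-up of the PCDHG signal in FSB stood apart from that in the other media. PCDHGC3 made up 21.6%, 22.3% and 27.2% of the summed PCDHG FPKM in F_FSB, 38.2%, 39.5% and 38.2% in FSB and 25.8%, 28.1% and 24.0% in F cultures. The share differed by 12.6 percentage points in FSB against F and by −14.9 in F_FSB against FSB. Both differences had p = 0.1 in a two-sided exact permutation test, the smallest value that 3 against 3 libraries allow. The share of PCDHGB4 was 26.3%, 27.5% and 25.7% in F_FSB, 14.5%, 14.1% and 12.5% in FSB and 26.2%, 26.5% and 29.8% in F cultures. Unlike the sum, the PCDHGC3 share of FSB replicate 3 lay next to that of the other FSB libraries. Because these shares are of 1 total, a rise of PCDHGC3 lowers the share of the rest. In GENCODE, 64.4% of the exonic bases of PCDHGB4 are shared with another member, the highest of any member, against 40.1% for PCDHGC3. Both values depend on how Cufflinks divided fragments of shared exons.

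**Figure D3:**
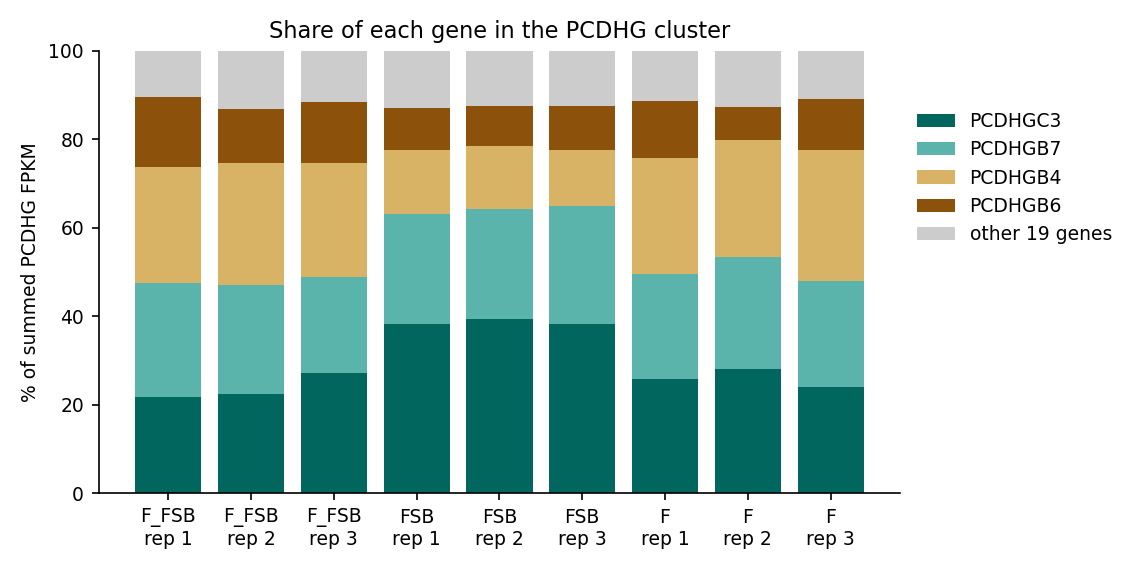
Share of the summed PCDHG FPKM (y axis, percent) held by PCDHGC3, PCDHGB7, PCDHGB4, PCDHGB6 and the remaining PCDHG loci together, 1 stacked bar for each of the 9 libraries. PCDHGC3 takes 38.2% to 39.5% in FSB and 21.6% to 28.1% in the other libraries, and PCDHGB4 takes 12.5% to 14.5% in FSB and 25.7% to 29.8% in the others.

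The PCDHA cluster had the fewest calls. With the inhibitor, in FSB against F, none of the 8 tested genes was called (limma; none had an unadjusted p under 0.05), beside 41.9% of all genes, and their median change was −0.02. After withdrawal, in F_FSB against FSB, 1 of 8 rose, beside 13.7% of all genes, with a median of 0.18, which was 0.06 without F_FSB replicate 2, 0.11 without F_FSB replicate 1, 0.27 without F_FSB replicate 3 and 0.10 without FSB replicate 2. That gene was PCDHA4, with 6.91, 7.35 and 5.65 FPKM in F_FSB, 3.16, 3.19 and 4.96 FPKM in FSB and 5.57, 4.52 and 4.33 FPKM in F cultures. All F_FSB libraries were above all others, and the change was 0.69 ± 0.17 (SE) in F_FSB against FSB (limma, adjusted p = 0.0118). Without FSB replicate 3, PCDHA4 was also called in FSB against F, at −0.47 (adjusted p = 0.0363 by limma). PCDHA10 had 15.6, 14.0 and 11.4 FPKM in F_FSB, 7.95, 10.2 and 11.4 FPKM in FSB and 13.6, 10.3 and 10.9 FPKM in F cultures, and was not called (adjusted p = 0.0618 in F_FSB against FSB by limma). It passed in that comparison without F_FSB replicate 3 (adjusted p = 0.0388) or FSB replicate 3 (adjusted p = 0.0489), and after rescaling by median ratios (adjusted p = 0.0155). PCDHA2 had a 95% interval of −0.47 to 0.33 for FSB against F and averaged 3.38 ± 0.759 FPKM in F_FSB, 3.04 ± 0.546 FPKM in FSB and 3.24 ± 0.631 FPKM in F cultures (SD, n = 3 each).

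Of the C-type α genes, PCDHAC2, which in mouse is needed for the spacing of serotonin axons, had 3.99, 6.49 and 4.18 FPKM in F_FSB, 4.39, 3.64 and 3.65 FPKM in FSB and 4.07, 3.37 and 6.04 FPKM in F cultures. The groups overlapped and no change was called. PCDHAC1 had 0.669, 1.86 and 0.459 FPKM in F_FSB, 1.11, 1.13 and 1.23 FPKM in FSB and 0.784, 0.434 and 0.595 FPKM in F cultures. Its FSB libraries were all above its F libraries, and F_FSB replicate 2 alone was higher. It passed the filter only through FSB and that library. The change in FSB against F was 0.43 ± 0.24 (SE; limma, adjusted p = 0.178). Without F_FSB replicate 2 it was called in FSB against F (adjusted p = 0.0319) and in F_FSB against FSB, at −0.47 (adjusted p = 0.039).

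Non-clustered protocadherins held the widest changes of the family. With the inhibitor, in FSB against F, PCDH1 and PCDH12 rose and PCDH7 and PCDH9 fell, 4 of 8 tested beside 41.9% of all genes. Withdrawal, in F_FSB against FSB, gave calls for the same 4 genes in the other direction, beside 41.8% of all genes. PCDH12 reached 1 FPKM in the FSB libraries only, so it had to differ to be tested. Among the other 7 genes, 1 rose and 2 fell in FSB against F, and 2 rose and 1 fell in F_FSB against FSB.

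PCDH1 (chromosome 5, 141232672 to 141257944), an adhesion protein of airway epithelium linked to asthma, had 2.74, 2.90 and 0.406 FPKM in F_FSB, 32.8, 36.0 and 33.0 FPKM in FSB and 0.743, 0.919 and 1.47 FPKM in F cultures. The 3 FSB libraries agree closely and exceed every other library by more than 10 times. The ratio of means was 32.5 in FSB against F, with a log2(FPKM + 1) change of 4.11 ± 0.36 (SE; limma, adjusted p = 0.000197). For F_FSB against FSB the change was −3.67 ± 0.36 (adjusted p = 0.000321). F_FSB replicates 1 and 2 had higher levels than any F library, whereas F_FSB replicate 3 was the lowest of the 9. Of 5 epithelial markers, 3 were tested. KRT8 and CLDN6 were called higher in FSB against F, and CLDN6 was called lower in F_FSB against FSB. CLDN6 reached 1 FPKM in the FSB libraries only, so it had to differ to be tested. CLDN6 moved with PCDH1, at 0.0781 to 0.223 FPKM in F_FSB, 1.36 to 3.66 FPKM in FSB and 0.0787 to 0.186 FPKM in F cultures, whereas CDH1 was under 0.1 FPKM in all 9 libraries. The 5 summed to 78.5 to 188 FPKM in F_FSB, 109 to 206 FPKM in FSB and 35.5 to 112 FPKM in F cultures, mostly KRT8 and KRT18. The part of these markers in the result was not tested.

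PCDH12 (chromosome 5, 141324530 to 141338627), known from endothelium and placenta, had 0.0939, 0.39 and 0.284 FPKM in F_FSB, 1.41, 1.14 and 1.21 FPKM in FSB and 0.0981, 0.308 and 0.184 FPKM in F cultures. The FSB libraries were alone above 1 FPKM, so the gene could pass the filter through them only and had to differ to be tested. The ratio of means was 6.38 in FSB against F. The log2 change was 0.92 ± 0.14 (limma, adjusted p = 0.00177) in FSB against F and −0.85 ± 0.14 (adjusted p = 0.00233) in F_FSB against FSB. Of 5 endothelial markers, 3 were tested. In FSB against F, CDH5 and TIE1 were called higher and TEK lower, and in F_FSB against FSB each was called the other way. Sums of the 5 were 1.47 to 5.31 FPKM in F_FSB, 5.42 to 6.08 FPKM in FSB and 2.71 to 5.92 FPKM in F cultures. CDH5 moved with PCDH12, at 0.128 to 0.285 FPKM in F_FSB, 3.14 to 3.95 FPKM in FSB and 0.0691 to 0.232 FPKM in F cultures. TEK moved the other way, at 1.10 to 2.59, 0.0205 to 0.266 and 1.94 to 4.2 FPKM in the same groups. CDH5 and TIE1 reached 1 FPKM in FSB libraries only, and TEK in none of them, so each had to differ to be tested. PECAM1 was not tested, at 0.107 to 1.74, 0.151 to 0.297 and 0.304 to 1.30 FPKM in the same groups. The part of these markers in the result was not tested. The gene RNF14 lies antisense over PCDH12 exons, and reads of the pair cannot be told apart without strand.

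PCDH7 (chromosome 4, 30722030 to 31148423), which binds protein phosphatase 1, had 45.0, 47.7 and 35.5 FPKM in F_FSB, 3.87, 3.75 and 8.96 FPKM in FSB and 49.6, 16.8 and 9.46 FPKM in F cultures. F_FSB libraries were uniformly high, while the F libraries spread widely and F replicate 3 lay just above FSB replicate 3. The change in F_FSB against FSB was 2.82 ± 0.54 (SE; limma, adjusted p = 0.00436), with a ratio of means of 7.73. For FSB against F it was −1.78 ± 0.54 (adjusted p = 0.0297). That call was lost without FSB replicate 1 (adjusted p = 0.0923), FSB replicate 2 (adjusted p = 0.0948) or F replicate 2 (adjusted p = 0.0562), and the change was −1.16 without F replicate 1. With the replicate number as a block its adjusted p was 0.0518.

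PCDH9 (chromosome 13, 66876966 to 67804468), a protocadherin of neurons and glia, had 13.2, 20.7 and 9.12 FPKM in F_FSB, 1.23, 1.09 and 1.80 FPKM in FSB and 15.7, 10.2 and 7.47 FPKM in F cultures. Every FSB library was below 2 FPKM and every other library above 7 FPKM. The ratio of means was 0.124 in FSB against F, with a log2 change of −2.31 ± 0.32 (SE; limma, adjusted p = 0.0012). It was 10.4 in F_FSB against FSB, with a change of 2.63 ± 0.32 (adjusted p = 0.000721). No alternative ended either call.

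PCDH18 (chromosome 4, 138440072 to 138453629) was the most abundant non-clustered gene, with 37.6, 51.7 and 92.7 FPKM in F_FSB, 111, 118 and 103 FPKM in FSB and 48.1, 55.9 and 92.8 FPKM in F cultures. All FSB libraries were above all others, but replicate 3 of each other group came close. The change missed the threshold in FSB against F, at 0.80 ± 0.34 (SE; limma, adjusted p = 0.0886), and in F_FSB against FSB, at −0.95 ± 0.34 (adjusted p = 0.0512). Without F_FSB replicate 3 both passed (adjusted p = 0.034 and 0.0108), and likewise without F replicate 3 (adjusted p = 0.0416 and 0.0376). With the replicate number as a block, F_FSB against FSB passed (adjusted p = 0.0313).

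PCDH19, which binds N-cadherin and is mutated in a form of epilepsy, had 6.47, 6.63 and 0.805 FPKM in F_FSB, 5.32, 4.21 and 16.0 FPKM in FSB and 2.57, 1.23 and 3.49 FPKM in F cultures. FSB libraries were above F libraries without overlap, yet the spread within FSB was wide and the gene was not called (limma, adjusted p = 0.134). PCDH10, which in mouse guides axons through the WAVE complex, had 14.1, 3.22 and 66.0 FPKM in F_FSB, 6.45, 4.80 and 9.68 FPKM in FSB and 10.96, 1.85 and 1.69 FPKM in F cultures. Its libraries spread widely within F_FSB and within F and less within FSB, and the 95% interval for FSB against F ran from −1.44 to 3.00. PCDH17, a synaptic protocadherin, had 4.43, 5.22 and 5.98 FPKM in F_FSB, 6.56, 6.10 and 3.31 FPKM in FSB and 9.16, 3.44 and 8.08 FPKM in F cultures, with overlap throughout and an interval of −1.04 to 0.49 for FSB against F. The locus LOC100129744 overlaps PCDH17 in the tables.

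**Figure D4:**
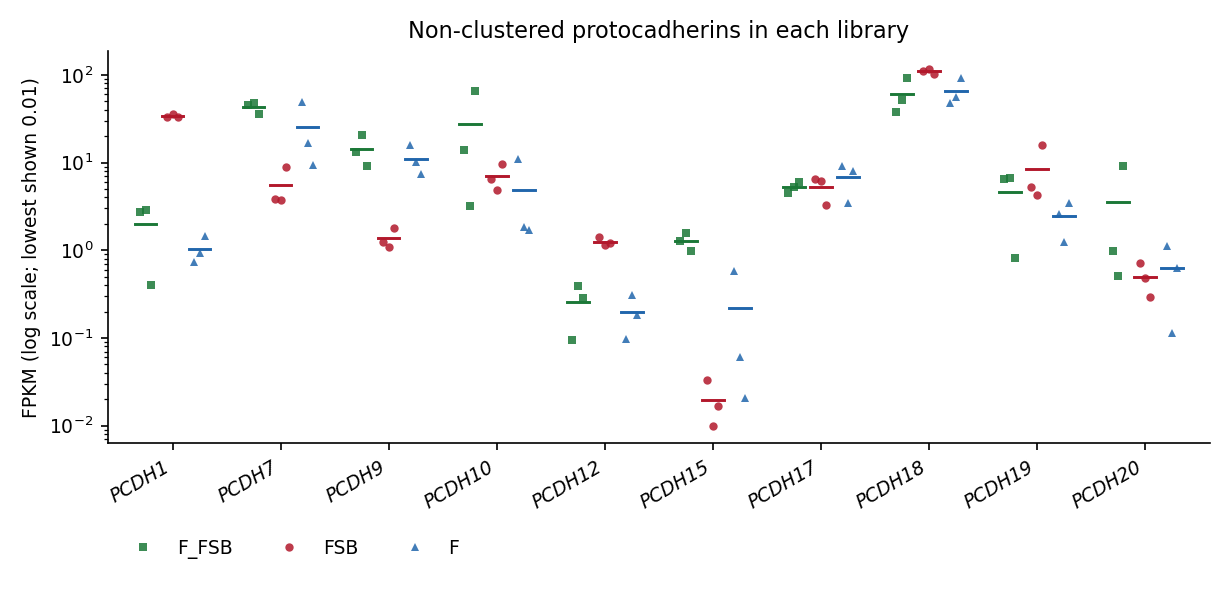
FPKM on a log scale (y axis) of 10 non-clustered protocadherins (x axis), with F_FSB, FSB and F libraries as points from left to right, 3 each, horizontal bars at group means and values under 0.01 FPKM drawn at 0.01. PCDH1 and PCDH12 are high in FSB, PCDH7 and PCDH9 are low in FSB, PCDH15 is high in F_FSB, and PCDH10 and PCDH20 spread widely within F_FSB.

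Of the untested non-clustered genes, PCDH15, a part of the tip links of hair cells in the inner ear, had 1.26, 1.59 and 0.968 FPKM in F_FSB, 0.0333, 0.00822 and 0.0167 FPKM in FSB and 0.577, 0.0602 and 0.0208 FPKM in F cultures. The F_FSB libraries were above all others, but only 2 libraries reached 1 FPKM and no test was made. PCDH20 had 0.988, 0.506 and 9.06 FPKM in F_FSB, 0.712, 0.481 and 0.296 FPKM in FSB and 1.13, 0.115 and 0.632 FPKM in F cultures, so a single F_FSB library held its high value. PCDH8, a protocadherin of the early mesoderm in vertebrates, was listed at 0 in 8 of the 9 libraries and at 0.0296 FPKM in F_FSB replicate 1. In the clusters, 7 PCDHA, 3 PCDHB and 12 PCDHG loci were untested, and their highest single values were 0.91, 1.05 and 0.822 FPKM.

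No protocadherin was called between the cultures after withdrawal and those that had not received the inhibitor during expansion. In F_FSB against F, none of 35 clustered and none of 8 non-clustered genes was called by limma, beside 0.00757% of all genes, and 1 of the 43 had an unadjusted p under 0.05. This was PCDHA4, with a change of 0.39 ± 0.17 (SE; adjusted p = 0.543). Groups of 3 leave wide intervals for the variable genes, −0.20 to 2.28 for PCDH7 and −0.37 to 4.07 for PCDH10. They leave narrower ones for PCDHB2 (−0.15 to 0.41), PCDHB16 (−0.44 to 0.06) and PCDHGC3 (−0.70 to 0.32). The groups did not overlap in 5 of the 35 clustered genes, all higher in F_FSB, beside 6.28% of all genes higher without overlap and 6.76% lower. These were PCDHA4, PCDHB10, PCDHB11, PCDHB14 and PCDHB18.

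Genes that regulate or carry out protocadherin functions were described from lists. Of 11 cohesin and CTCF genes, whose products shape the loops between cluster promoters and enhancers, 8 rose and none fell in FSB against F, beside 28.5% of all genes that rose. The same 8 fell in F_FSB against FSB, beside 28.2% of all genes that fell. After rescaling by median ratios, 4 rose in FSB against F and 8 fell in F_FSB against FSB. SMC3, a cohesin ring subunit, had 24.8, 24.0 and 19.1 FPKM in F_FSB, 42.8, 40.7 and 38.6 FPKM in FSB and 22.9, 22.1 and 23.7 FPKM in F cultures. SMC1A, the other SMC subunit of the ring, averaged 13.4 ± 2.13 FPKM in F_FSB, 29.2 ± 3.89 FPKM in FSB and 14.6 ± 1.47 FPKM in F cultures. WAPAL, which releases cohesin from DNA, averaged 12.4 ± 1.07 FPKM in F_FSB, 20.1 ± 1.18 FPKM in FSB and 13.5 ± 0.259 FPKM in F cultures. CTCF averaged 19.3 ± 2.00 FPKM in F_FSB, 26.7 ± 0.443 FPKM in FSB and 19.9 ± 0.884 FPKM in F cultures (SD, n = 3 each). The list's median change was 0.36 in FSB against F and −0.46 in F_FSB against FSB.

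Of 12 genes linked to silencing of the clusters, chiefly DNA methylation and heterochromatin factors, 6 rose in FSB against F, beside 28.5% of all genes. In F_FSB against FSB 7 fell, beside 28.2% of all genes, and none was called the other way in either comparison. The DNA methyltransferase DNMT1 averaged 18.9 ± 1.59 FPKM in F_FSB, 43.7 ± 3.46 FPKM in FSB and 23.9 ± 5.31 FPKM in F cultures. TRIM28, a heterochromatin co-repressor, averaged 64.1 ± 6.87 FPKM in F_FSB, 125 ± 8.36 FPKM in FSB and 71.7 ± 4.78 FPKM in F cultures. TET1, which oxidizes methylated cytosine and so acts against methylation, was among the genes that rose, at 2.54 ± 0.173 FPKM in F_FSB, 5.82 ± 0.492 FPKM in FSB and 2.79 ± 0.326 FPKM in F cultures (SD, n = 3 each).

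Of 7 genes for proteolytic processing of protocadherins (ADAM10, ADAM17 and γ-secretase subunits), none was called in FSB against F, and PSENEN alone fell in F_FSB against FSB, at −0.24 (limma, adjusted p = 0.0469), a call lost when any 1 library other than FSB replicate 3 was left out (adjusted p = 0.0555 to 0.149) and with each of the 3 other scalings (adjusted p = 0.115 to 0.465). Of 10 WAVE complex genes, 6 rose in FSB against F and 4 fell in F_FSB against FSB. WASF1 averaged 9.33 ± 1.16 FPKM in F_FSB, 16.1 ± 0.611 FPKM in FSB and 10.6 ± 1.26 FPKM in F cultures. CYFIP1, another subunit, averaged 30.1 ± 1.80 FPKM in F_FSB, 39.0 ± 1.495 FPKM in FSB and 30.1 ± 1.99 FPKM in F cultures. Of 9 tested kinases and binding partners, 4 rose in FSB against F and 5 fell in F_FSB against FSB. Among them, PPP1CA, the phosphatase subunit that binds PCDH7, averaged 73.7 ± 2.66 FPKM in F_FSB, 122 ± 8.48 FPKM in FSB and 70.4 ± 1.65 FPKM in F cultures (SD, n = 3 each). FYN, a kinase of the Src family, averaged 24.7 ± 1.12 FPKM in F_FSB, 45.0 ± 1.62 FPKM in FSB and 23.9 ± 4.28 FPKM in F cultures. CDH2, the N-cadherin partner of PCDH19, was not called, with 37.9, 29.3 and 76.6 FPKM in F_FSB, 19.1, 18.6 and 42.1 FPKM in FSB and 34.6, 27.6 and 29.5 FPKM in F cultures. Without FSB replicate 3 it was called in F_FSB against FSB, at 1.18 (limma, adjusted p = 0.0385). In F_FSB against F no gene of these lists was called. All these counts stand beside the 28.5% of all genes that rose in FSB against F and the 28.2% that fell in F_FSB against FSB. Rescaling by median ratios left 4 cohesin and CTCF genes, 5 silencing genes, 4 WAVE complex genes and 3 kinases and partners called higher in FSB against F, and none lower, and the cohesin and CTCF median in that comparison was 0.21. In F_FSB against FSB it gave 8, 6, 3 and 4 lower for the same lists, with the silencing list's TET2 and the processing list's NCSTN, a γ-secretase subunit, called higher. With equal FPKM sums, 3 cohesin and CTCF genes and 2 WAVE complex genes were called higher in FSB against F. Without FSB replicate 1, 4 cohesin and CTCF genes were called in that comparison, and without F replicate 2 or FSB replicate 2, 5.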

How the data were processed

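RNA from 9 cultures was sequenced from strand-specific SureSelect libraries, and the authors deposited 1 Cufflinks gene table of FPKM values per library, per the file headers. Tools given in the submitters' processing notes are TopHat2 2.0.12 and Cufflinks 2.1.1, and the build given is GRCh37; the sources used here give neither options and annotation nor the use of strand. FPKM is normalized to transcript length and to each library's mapped fragments. The tables hold no counts, so absolute depth is unknown; relative depth was roughly estimated from the lowest values of genes without introns.

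Loci with a status other than OK in any library (95 of 25593) were left out. The 13216 genes that reached 1 FPKM in 3 or more libraries were tested as log2(FPKM + 1), a scale that understates changes of low genes, with limma 3.58.1 (R 4.3.3; mean-variance trend, all 9 libraries in 1 fit of group means, two-sided, Benjamini-Hochberg over all genes tested, threshold 0.05). The p-values measure the spread between these cultures. Python 3.11.15, pandas 2.3.3 and matplotlib 3.10.9 joined the tables and drew the figures. Table starts count from 0 and are given 1-based.

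The protocadherins, the lists and the tests were chosen with earlier results of these data known. Genes named are all tested non-clustered genes and, per cluster, the 4 most abundant, the called genes without overlap between groups (at most 8 per comparison by size) and the C-type genes; from each list, 2 to 4 tested members with the smallest adjusted p. PCDHB3, PCDHB4, PCDHB7, PCDHB11, PCDHB18, CDH2, NCSTN, TET2, FOXD3, SOX10 and single markers of other cell types were named after their values were seen. Some listed genes are not reported here. Shared exons come from GENCODE for GRCh37, and promoters from RefSeq (GRCh38.p14). Alternatives changed the pseudocount, filter, scaling, samples in the fit, replicate block and single libraries.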

Additional observations from a re-analysis of the deposited data

How the results depend on the processing

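The tests were repeated with a pseudocount of 0.1, no filter, a filter of 5 FPKM, 3 other scalings, only the 2 groups compared, the replicate number as a block and each library left out. Of 12 clustered genes called in FSB against F, 6 were called with the filter of 5 FPKM. Of 13 called in F_FSB against FSB, 7 were called with that filter and 8 with equal FPKM sums. The filter left 15 of 35 clustered genes to test; the cause of the change with equal sums was not tested. The other scalings and filters left each total of clustered and of non-clustered calls within 1.5 times. Within PCDHG alone, testing without a filter raised the loci tested to 23, of which 7 rose and 1 fell in FSB against F and 1 rose and 6 fell in F_FSB against FSB, against 4 calls in each with the filter. Leaving out 1 library gave 8 to 12 clustered and 3 to 5 non-clustered calls in FSB against F, 9 to 14 and 4 to 5 in F_FSB against FSB, and 0 in F_FSB against F. Of the 93 changes of the tested protocadherins named, none turned its direction past the threshold: over all alternatives, 75 values lost a call, 22 gained one and 1448 stayed on their side. With equal sums, calls were lost by PCDHB3, PCDHB4, PCDHB7 and PCDHB14 in FSB against F, and by PCDHB3, PCDHB4, PCDHB16, PCDHB18 and PCDHGB4 in F_FSB against FSB.

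The same culture numbers occur in all groups, but the correlations of same-numbered libraries' deviations from their group means ran from −0.136 to 0.292 and were not all above 0.1, so the number was not taken to pair the libraries. The highest correlation of any pair between groups, 0.292, was that of F_FSB replicate 1 and F replicate 1. F_FSB cultures were split from expanded cells whose remainder stayed in FSB, and no label ties their numbers to those of FSB. With the replicate block, 9 clustered and 3 non-clustered genes were called in FSB against F, 11 and 5 in F_FSB against FSB, and 0 in F_FSB against F.

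No counting error was computed without fragment counts, and the intervals that Cufflinks gave are the only estimate of it used. Some of these intervals exclude the value they belong to, so they are a doubtful measure of error. For PCDH18 in FSB replicate 1, the value was 111.5 FPKM and the interval 106.1 to 111.1 FPKM. Genes near 1 FPKM are the least precise, above all in F_FSB replicate 2, the shallowest library by the rough estimate. Constant exons limit how far PCDHA and PCDHG genes can be separated.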
